A study of Drosophila melanogaster with 9 samples.

Results

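The odorant binding protein (Obp) genes of Drosophila melanogaster are described here in pupal retinas and optic lobes. Members were all genes whose symbol begins with Obp and a digit in any of the 4 deposited tables, which gave 6 genes among 904 listed genes. Of these, Obp83g, Obp56g and Obp99a were among the 373 genes listed for Blimp-1 RNAi, and Obp47a, Obp99c and Obp83ef were among the 710 listed for Blimp-1 overexpression. No Obp gene was listed in both comparisons, against 179 of all 904 listed genes. With 6 genes, whether this differs from the other listed genes was not tested. The study sequenced polyadenylated RNA, with strand kept, at 48 h after puparium formation (APF) from animals raised at 25 °C. Control animals were lGMR GAL4/+, RNAi animals lGMR GAL4>Blimp-1 RNAi and overexpression animals lGMR GAL4>UAS Blimp-1, with 3 biological replicates in each of these 3 groups. All groups carried the lGMR GAL4 driver, which is active in the developing eye, and the control genotype as labelled held no UAS insert. Retinas and optic lobes were not sequenced apart, so each value is a sum over both tissues, and the number of animals per sample is not stated in the labels.

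Odorant binding proteins are small secreted proteins, most of them held together by disulfide bridges, that bind hydrophobic molecules. They are best known from the lymph around the neurons of olfactory and taste hairs, where non-neuronal support cells secrete them and where they are thought to carry or buffer odorants. Several family members are also made outside the chemosensory organs, for instance in glia, fat body or the male reproductive tract. Blimp-1, a repressor of transcription with zinc fingers, is induced by ecdysone, the hormone of moulting and metamorphosis.

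The tables hold only genes that the authors selected against control, all of them changed by 1 or more on the log2 scale with adjusted p-values under 0.05. Of 51 genes with an Obp symbol in the annotation, the other 45 therefore have no values here, and each listed Obp gene has values for control and for 1 altered genotype only. Values are normalized counts, which are read counts scaled by 1 factor per library. One read was worth between 0.672 and 1.28 normalized counts, and the total depth is unknown. Reads in listed genes numbered 1189615 to 2306340 per control library over 904 genes, 954516 to 1318419 per RNAi library over 373 genes and 1322202 to 1918155 per overexpression library over 710 genes, so these ranges cover unlike gene sets. Blimp-1 itself, which checks the labels, held 748.5 to 887.7 normalized counts in the control libraries and 23252, 9467 and 18277 in overexpression replicates 1, 2 and 3. It had no entry in the RNAi tables.

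All 6 Obp genes were higher than in control in the genotype in which they were listed. The authors' deposited tables listed 49.3% of the 373 RNAi genes and 72.4% of the 710 overexpression genes as higher, so 3 of 3 in each comparison is a count over very few genes. The changes ranged from 2.91-fold for Obp83ef to 9.95-fold for Obp83g as ratios of group means, with a lower bound of 8.73-fold for Obp56g, which had no read in control. In every one of the 6 genes each altered library lay above each control library. The same separation held for 184 of the 373 listed RNAi genes (49.3%), and 184 were listed as higher. It held for 512 of the 710 listed overexpression genes (72.1%), where 514 were listed as higher. Nearly every gene listed as higher thus showed it, so it follows the selection of the tables. An exact permutation test of 3 against 3 libraries, two-sided, gave p = 0.1 for each Obp gene, the smallest p it allows. A limma fit across all listed genes of a comparison called all 6 Obp genes higher, but it also called 100% of the listed genes in each comparison. Its p-values therefore restate the selection and are no independent evidence. Rescaling the libraries by TMM over listed genes, which centres on genes selected as changed, ended the call for Obp47a, Obp99c and Obp83ef (limma adjusted p = 0.0739, 0.371 and 0.960). Their log2 differences were then 1.40 ± 0.59, 0.30 ± 0.27 and 0.02 ± 0.31 (SE).

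**Figure D1:**
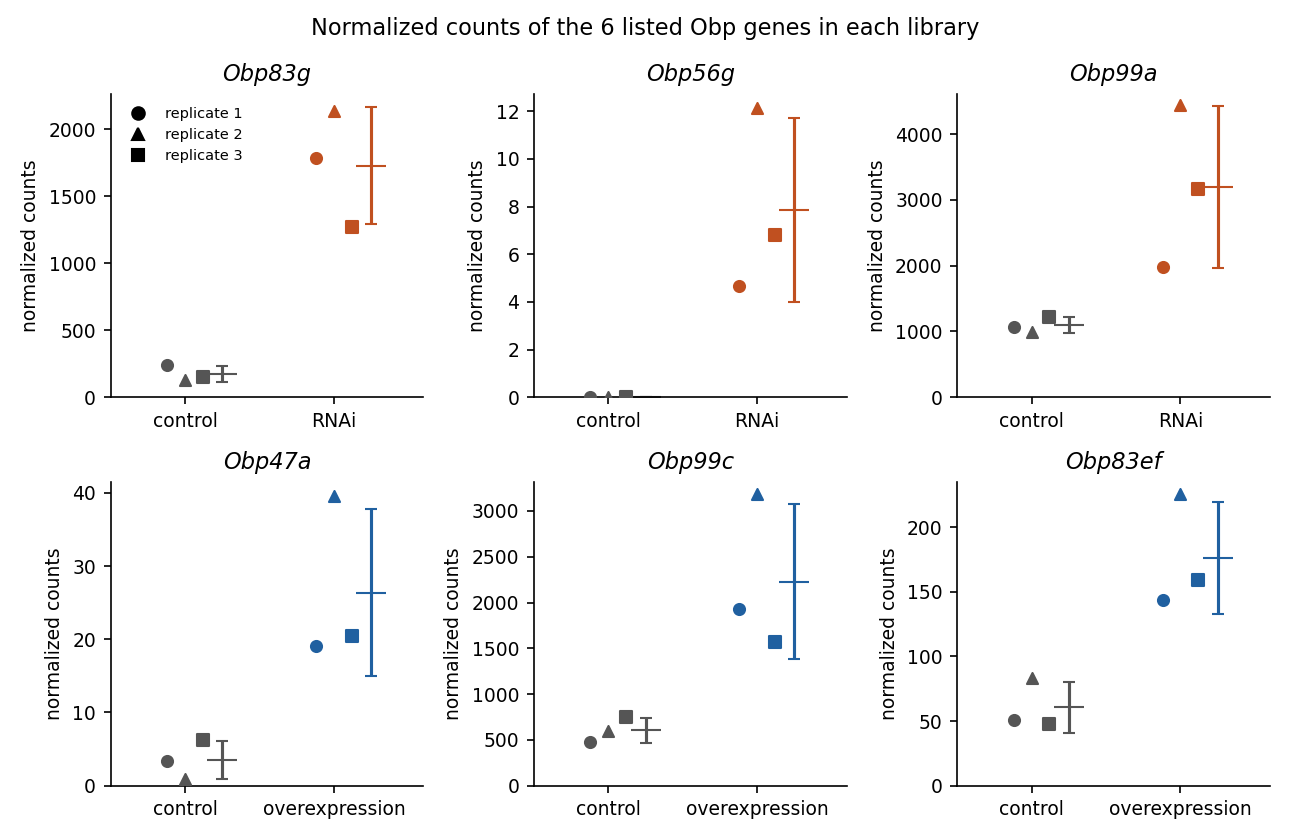
Normalized counts of each Obp gene (vertical axes, starting at 0) in the control libraries and in the altered genotype in which the gene was listed. Symbols mark replicates 1, 2 and 3, and the bars give mean ± SD with n = 3. In all 6 genes the altered libraries lie above the control libraries, and replicate 2 is the highest library of the altered group.

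Obp83g had the largest ratio of means among the listed Obp genes with reads in control. It held 237.8, 129.6 and 153.4 normalized counts in control replicates 1, 2 and 3 and 1783, 2133 and 1268 in RNAi replicates 1, 2 and 3. The lowest RNAi library was thus far above the highest control library. The mean went from 173.6 ± 56.9 to 1728 ± 435 (SD, n = 3), a 9.95-fold rise, with a log2 difference of 3.32 ± 0.28 (SE, limma adjusted p = 1.80e-06). The authors' deposited table gave a log2 fold change of 3.28 and an adjusted p of 8.65e-34, and Obp83g ranked 34 by fold among the 184 genes listed as higher. Leaving out 1 library at a time kept the fold between 8.79 and 12.2. Obp83g (FBgn0046875, dm6 3R 6111671 to 6112302, minus strand) is a gene of 2 exons that encodes 146 residues.

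Obp99a had the highest control level of the 6 listed Obp genes and rose further in RNAi. The control libraries held 1073, 984.6 and 1221 normalized counts, close to one another. The RNAi libraries held 1974, 4442 and 3166 and spread more widely, so that the coefficient of variation was 10.9% in control and 38.6% in RNAi. The mean rose 2.92-fold, from 1093 ± 120 to 3194 ± 1234 (SD, n = 3), with a log2 difference of 1.48 ± 0.28 (SE, limma adjusted p = 0.000385). The deposited value of the authors' table was a log2 fold change of 1.47 with an adjusted p of 1.38e-07, rank 121 of 184. Without RNAi replicate 2, the highest library, the fold was 2.35. Obp99a (FBgn0039678, dm6 3R 29671657 to 29672334, plus strand) encodes 142 residues from 2 exons.

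Obp56g, which is known for its role in the seminal fluid, was at the limit of detection. No read fell on it in any control library, and RNAi replicates 1, 2 and 3 held 5, 10 and 8 reads, or 4.65, 12.1 and 6.80 normalized counts. The RNAi mean of 7.86 ± 3.86 normalized counts (SD, n = 3) was at least 8.73-fold above the level that 3 reads over the whole control group would give, 0.900 normalized counts. This bound covers the counting error of the control only and takes the 23 RNAi reads as exact. The authors' deposited table gave a log2 fold change of 2.07 and an adjusted p of 0.0216, which was the largest adjusted p among the 184 genes listed as higher in RNAi. That log2 fold change lies below the bound, which is 3.13 on the log2 scale, and no source used here says how it was computed. With so few reads the presence of the transcript in RNAi libraries was measurable, but its level was not precise. Obp56g (FBgn0034474, dm6 2R 19783484 to 19784043, minus strand) encodes 132 residues, the shortest protein of the 6 genes.

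Of the 3 Obp genes listed for overexpression, Obp99c had the highest level. Control replicates 1, 2 and 3 held 475.0, 593.1 and 746.0 normalized counts, and overexpression replicates 1, 2 and 3 held 1926, 3180 and 1570. The groups did not overlap, and overexpression replicate 2 stood above the other libraries of its group. The mean rose 3.68-fold, from 604.7 ± 135.9 to 2226 ± 846 (SD, n = 3), with a log2 difference of 1.84 ± 0.30 (SE, limma adjusted p = 0.000260). The authors' deposited table gave a log2 fold change of 1.77 and an adjusted p of 1.71e-07, rank 288 of 514 by fold. Obp99c (FBgn0039682, dm6 3R 29685736 to 29689311, minus strand) has 3 exon blocks and encodes 151 residues.

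Obp83ef encodes 245 residues, the longest protein of the 6 genes, and belongs to the members known to carry a pair of binding domains in 1 chain. Its control libraries held 51.1, 83.5 and 47.4 normalized counts, and its overexpression libraries 143.9, 225.8 and 159.3. Replicate 2 was the highest in both groups. The mean went from 60.7 ± 19.9 to 176.3 ± 43.5 (SD, n = 3), a 2.91-fold rise, with a log2 difference of 1.54 ± 0.33 (SE, limma adjusted p = 0.00127). The authors' deposited table gave a log2 fold change of 1.33 and an adjusted p of 0.000435, rank 410 of 514. Obp83ef lies at dm6 3R 6109642 to 6111034 on the minus strand (FBgn0046876).

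Obp47a was scarce, with 5, 1 and 5 reads in control replicates 1, 2 and 3 and 21, 31 and 20 reads in overexpression. These were 3.36, 0.96 and 6.24 normalized counts in control against 19.1, 39.6 and 20.4. The mean rose 7.49-fold, from 3.52 ± 2.64 to 26.4 ± 11.4 (SD, n = 3), with a log2 difference of 2.71 ± 0.54 (SE, limma adjusted p = 0.000897). Its size depended on single libraries, since the fold was 12.2 without control replicate 3, the highest control library, and 5.49 without control replicate 2, the lowest. The authors' deposited table gave a log2 fold change of 2.16 and an adjusted p of 0.00452, rank 211 of 514. Obp47a (FBgn0033573, dm6 2R 10909923 to 10910485, plus strand) encodes 165 residues.

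The 6 genes differed far more in level than in fold change. Per kb of exon, the control means in normalized counts were 1792 ± 196 for Obp99a, 904 ± 203 for Obp99c, 67.3 ± 22.0 for Obp83ef and 7.07 ± 5.31 for Obp47a (SD, n = 3). Obp83g, at 305.1 with libraries from 227.7 to 418.0, lay between Obp99c and Obp83ef, and Obp56g had no read. No neighbours in this order overlapped between libraries. In RNAi the order of Obp99a and Obp83g was kept on average, at 5236 ± 2024 and 3037 ± 765 normalized counts per kb (SD, n = 3), but their libraries overlapped. The gap between these 2 genes was thus 1.72-fold in RNAi. In overexpression Obp99c, Obp83ef and Obp47a stood at 3327 ± 1264, 195.7 ± 48.3 and 52.9 ± 23.0 normalized counts per kb (SD, n = 3), without overlap. For scale, the median gene listed as higher stood at 376.1 normalized counts per kb in RNAi and 326.7 in overexpression, so Obp99a, Obp83g and Obp99c lay above that median in their altered genotype and Obp56g, Obp83ef and Obp47a below it.

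**Figure D2:**
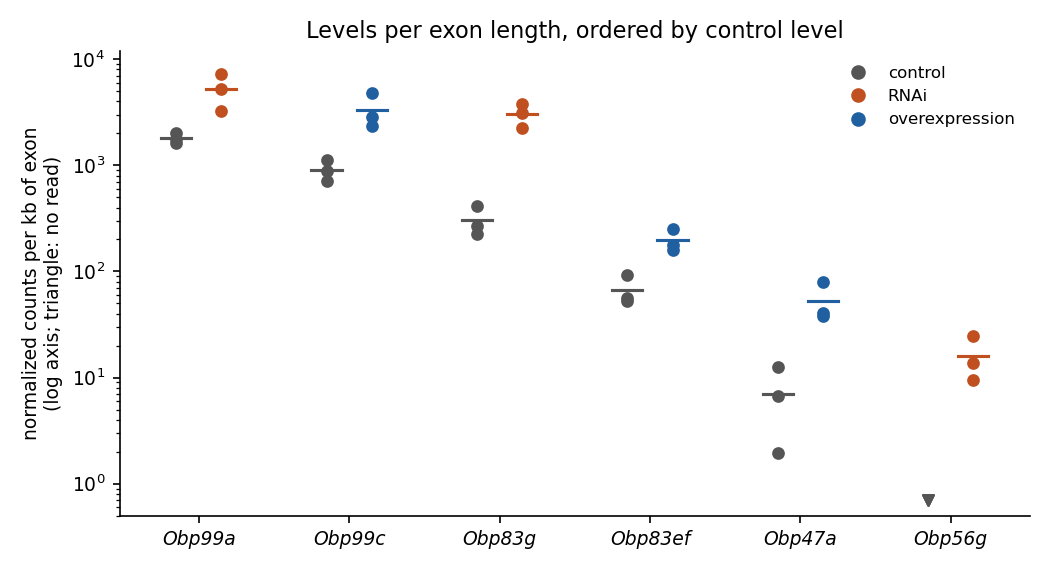
Normalized counts per kb of exon (log axis) for the 6 Obp genes, ordered by control level, with 1 point per library and a line at the group mean. The triangle marks Obp56g, which had no read in control. Control levels run from 1792 for Obp99a to 7.07 for Obp47a.

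By the authors' deposited log2 fold changes the Obp genes sat in the middle of the genes listed as higher. The median log2 fold change of the 3 Obp genes in the authors' deposited table was 2.07 in RNAi and 1.77 in overexpression. Over all genes listed as higher the medians were 1.78 for RNAi (quartiles 1.32 and 2.76) and 1.89 for overexpression (quartiles 1.42 and 2.89). Obp83g was the only one of the 6 above the upper quartile of its table, and Obp83ef the only one below the lower quartile. These places hold for the deposited measure. For Obp47a and Obp56g it gave 2.16 and 2.07, less than the log2 ratios of means, 2.91 and a bound of 3.13.

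**Figure D3:**
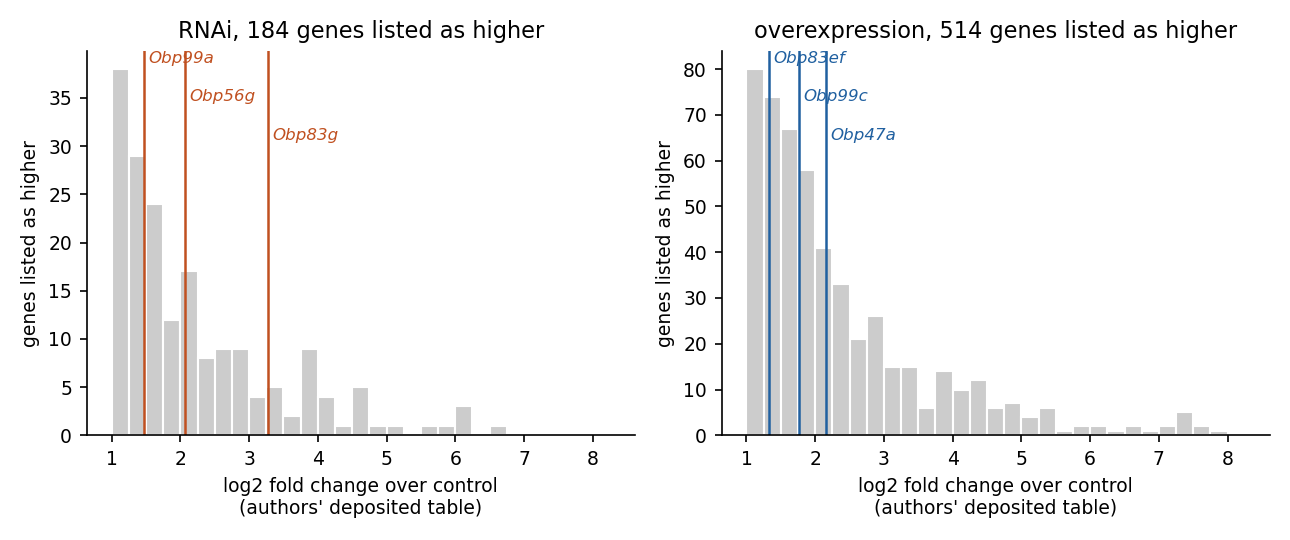
Distribution of log2 fold changes over control (horizontal axes, from the authors' deposited tables) for the 184 genes listed as higher in RNAi and the 514 in overexpression, with number of genes on the vertical axes. Lines mark the Obp genes, of which Obp83g, at 3.28, lies farthest to the right.

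Replicate 2 of the altered genotype was the highest library of its group for all 3 Obp genes in RNAi and for all 3 in overexpression. In overexpression this was the common pattern, since replicate 2 was the highest overexpression library for 59.3% of the 514 genes listed as higher. In RNAi it was the highest for 34.2% of the 184 genes listed as higher. Relative to its group mean on the log2(normalized count + 1) scale, RNAi replicate 2 lay 0.34 above for Obp83g, 0.66 above for Obp56g and 0.55 above for Obp99a. The quartiles over all 373 listed genes in that library were -0.19 and 0.19, so the 3 Obp genes all lay outside the middle of the distribution. Overexpression replicate 2 lay 0.64, 0.58 and 0.38 above for Obp47a, Obp99c and Obp83ef, with quartiles of -0.25 and 0.34 over the 710 listed genes. This library also held the least Blimp-1 of the 3 overexpression libraries, 9467 normalized counts. No such common library appeared in control, where the highest library was replicate 1 for Obp83g, replicate 2 for Obp83ef and replicate 3 for Obp99a, Obp99c and Obp47a. With 3 libraries a group these orders are a description, and whether anything in the dissection or the library moved these genes was not tested.

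**Figure D4:**
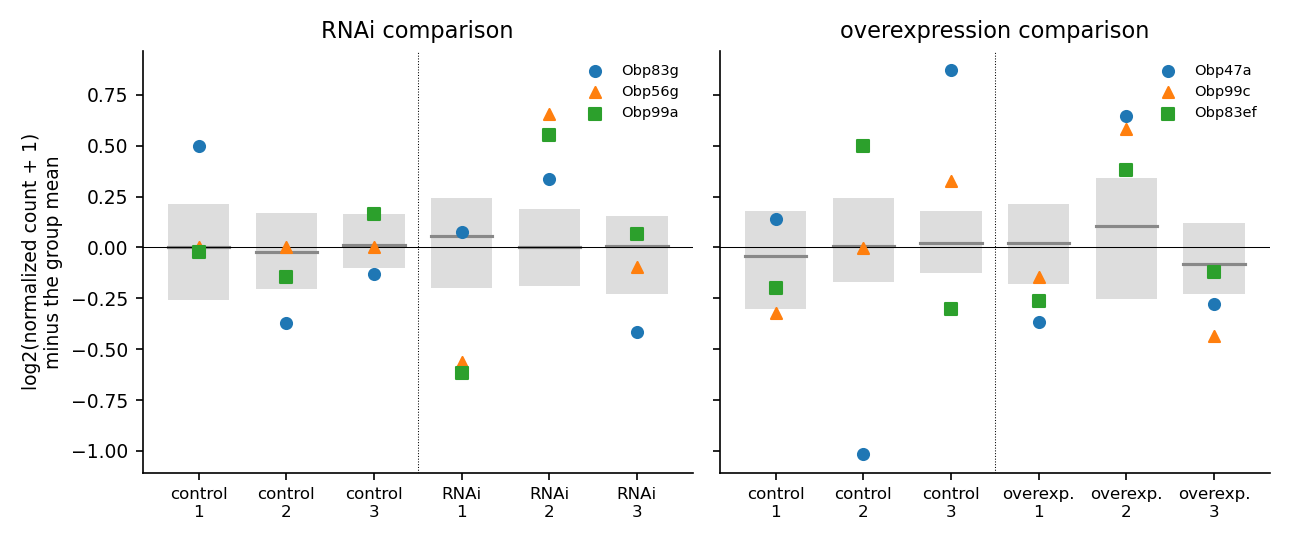
Deviation of each library from its group mean on the log2(normalized count + 1) scale, for the RNAi comparison and the overexpression comparison. Symbols are Obp genes, grey bars span the quartiles of all listed genes and grey lines are their medians. Replicate 2 of RNAi and of overexpression is the library in which all 3 Obp genes lie above 0.

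Of the 6 listed genes 4 lie in 2 Obp clusters on chromosome arm 3R, and in each cluster 1 gene was listed for RNAi and another for overexpression. Obp83g and Obp83ef are neighbours on the same strand, with 636 bases between them. Obp83g was listed as higher only in the RNAi tables and Obp83ef only in the overexpression tables; whether either differs between the 2 genotypes could not be tested, since their values in the other genotype were not analysed here. Obp83cd, the next gene of the cluster, lies on the opposite strand, overlaps Obp83ef by 92 bases and had no entry. Libraries kept the strand, but no source used here says whether counting used it, so some reads assigned to Obp83ef could belong to Obp83cd. Near these genes lies Gasp, which encodes a chitin-binding cuticle protein, 8754 bases from Obp83ef. Gasp held 15688, 11648 and 13291 normalized counts in control, 34490, 25441 and 29046 in RNAi and 5216, 4589 and 5526 in overexpression. Its 3 groups did not overlap, and it was 2.19-fold higher in RNAi (limma adjusted p = 0.000657) and 2.65-fold lower in overexpression (limma adjusted p = 9.71e-05), both against the same control libraries. Obp83ef thus rose in the genotype in which Gasp fell, while Obp83g rose in the genotype in which Gasp rose.

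Obp99a and Obp99c lie 13401 bases apart on opposite strands. Obp99a was listed for RNAi alone and Obp99c for overexpression alone, while the other annotated members of the cluster, Obp99d and Obp99b, had no entry. Obp99c overlaps Gycalpha99B, a soluble guanylyl cyclase gene on the opposite strand, by 23 bases at its 3′ end. No other listed gene lay within 20 kb of Obp99a or Obp99c, and none lay within 20 kb of Obp56g or Obp47a. Of the 51 annotated Obp genes 29 lie on 2R and 12 on 3R, against 2 and 4 of the listed genes. No Obp gene on X, 2L or 3L was listed, where 6, 2 and 2 are annotated. With so few listed genes, a preference for an arm was not tested.

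**Figure D5:**
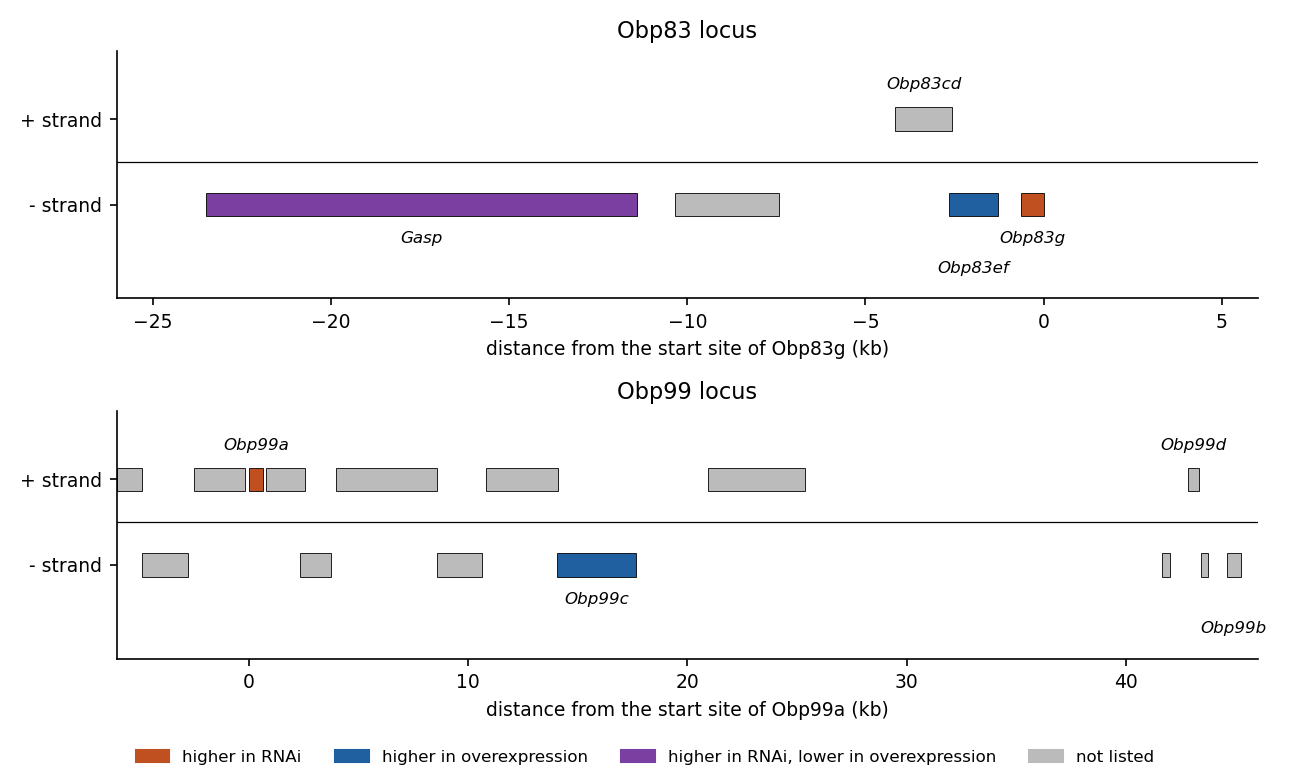
Maps of the Obp83 and Obp99 loci, with distance in kb from the start site of Obp83g and of Obp99a on the horizontal axes and the strand on the vertical axes. Boxes are annotated genes, coloured by the table that lists them. In each locus an Obp gene higher in RNAi and an Obp gene higher in overexpression lie within 20 kb of each other.

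The authors annotated 5 of the 6 genes as secreted and Obp99c as extracellular. Of the 22 genes so annotated and listed as higher in RNAi, Obp83g ranked 2, Obp56g 9 and Obp99a 16 by fold. In overexpression Obp47a ranked 12, Obp99c 16 and Obp83ef 23 of 31. The stage of peak expression in the deposited tables was the 12 h prepupa for Obp83g and 1 to 2 d of pupal life for Obp99c and Obp83ef, with blank entries for the other Obp genes. None of the 3 Obp genes of RNAi carried a mark for a Blimp-1 site, against 43.5% of the genes listed as higher. Obp83g carried a mark for a site of Slbo, another transcription factor, as did 37.5% of the genes listed as higher in RNAi. No source used here says how the authors assigned sites and stages, and the overexpression tables hold no site marks.

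For each Obp gene, the listed genes whose pattern over the 6 libraries of the comparison was most like it were found by Pearson correlation of log2(normalized count + 1). These correlations include the group difference on which all genes were selected and are a description. They are also common, since between 16.8% and 53.6% of the genes compared had r above 0.9 with a given Obp gene. Closest to Obp83g were CG17777 (r = 0.997), CG13376 and Trxr-1, a thioredoxin reductase gene. Closest to Obp99a were the lysozyme gene LysX (r = 0.997), CG11400 and tut. Closest to Obp56g were the chitin deacetylase gene Cda4 (r = 0.999), Idgf6 of the chitinase-like growth factor family, and NT5E-2. In overexpression CG17919, Ugt35b and CG13071 were closest to Obp99c (r = 0.996, 0.995 and 0.994), CG7912, CG5335 and CG17119 to Obp83ef (r = 0.994, 0.992 and 0.990), and CR43423, CG2157 and CG34112 to Obp47a (r = 0.991, 0.991 and 0.986). None of these genes was closest to more than 1 Obp gene.

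Other chemosensory genes were also counted among the listed genes. The list held receptor genes (Or, Ir and Gr) and CheA, CheB, Npc2, ppk and Ugt family genes. It also held single genes, some of odorant handling and others not, such as the transcription factor genes dsx, fru and ato. These were 300 annotated genes in all. In RNAi 4 were listed, all lower, where 50.7% of listed genes were lower. In overexpression 6 were listed, all higher, where 72.4% of listed genes were higher. No Or or Gr gene was listed, out of 60 and 60 annotated, and 1 of 66 Ir genes was. The share of all annotated genes that was listed was not computed, so whether these counts are low was not tested. The 4 genes lower in RNAi were Snmp2, the esterase gene Est-6 and the Ugt family genes CG30438 and CG17323, so most encode enzymes. The Obp genes listed in RNAi were higher, but 49.3% of all listed RNAi genes were higher too. Both sets are very small, and whether Obp genes and other chemosensory genes differ in direction was not tested.

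The largest of these changes was in Snmp2, which encodes a CD36-family membrane protein of sensory support cells. It held 89.3, 90.2 and 93.6 normalized counts in control and 6.51, 8.50 and 6.80 in RNAi, a 12.5-fold fall without overlap (limma adjusted p = 6.09e-07). Ir68a, an ionotropic receptor gene needed by moist-sensing neurons, rose 7.64-fold in overexpression, from 28.9 ± 12.3 to 220.9 ± 21.9 normalized counts (SD, n = 3), with a limma adjusted p of 6.46e-05. Npc2g, whose product belongs to a family of secreted lipid-binding proteins, rose 4.94-fold, from 8.51 ± 4.88 to 42.0 ± 19.0 (SD, n = 3). Est-6, which encodes a secreted carboxylesterase, was listed in both comparisons. It held 741.7, 772.5 and 916.9 normalized counts in control, 509.5, 367.8 and 244.0 in RNAi and 2078, 2640 and 2168 in overexpression, without overlap between groups. CG30438 (Ugt50B3), a glucuronosyltransferase gene, fell 2.34-fold in RNAi, from 777.1 ± 161.3 to 331.8 ± 19.0 (SD, n = 3). The other listed members were Ugt family genes, namely CG17323 in both comparisons and Ugt35b and Dot in overexpression.

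Bulk values cannot tell more cells that express an Obp gene from more RNA per cell. Listed markers of other cells were therefore summed per library. The marker lists were chosen with earlier results of these data known, so the counts of listed markers and their directions are only a description. Only markers that the authors had selected as changed have values, so the separation of control and altered sums follows that selection, and 72.4% of all listed overexpression genes were higher. In overexpression 4 of 16 glial markers were listed, all higher, with summed levels of 4973 to 5378 normalized counts in control and 12172 to 15147 in overexpression. Of 16 hemocyte markers 4 were listed, all higher, at 224.4 to 316.7 against 937.4 to 1528, and of 14 fat body markers only Tsf1 was, at 10820 to 11757 against 21627 to 29576. In overexpression replicate 2, where Obp47a, Obp99c and Obp83ef were highest, the hemocyte sum was also the highest of its group, the glial sum was the lowest, and the fat body sum was highest in replicate 1. In RNAi no glial or fat body marker was listed, and the hemocyte marker Ppn was lower, at 479.4 to 665.8 against 1647 to 2203. The bristle and support cell list held 16 names, of which f and forked name the same gene. Of these, Tsp42Ed and Gasp were listed as higher in RNAi, with sums of 11894 to 16056 in control and 26240 to 35321 in RNAi. Gasp made up most of these sums, with an RNAi mean of 29659 against 730.1 for Tsp42Ed. In overexpression 6 were listed, 4 of them higher, with sums of 18359 to 22693 in control and 27328 to 32754 in overexpression, again highest in replicate 2. This sum joins opposite changes. Gasp fell from a mean of 13543 to 5110 and jv from 401.6 to 117.7, while the other 4 rose. Of 25 retinal markers 3 were listed in RNAi, all lower, at 35189 to 39469 in control against 10384 to 19055. In overexpression 10 were listed, 7 of them higher, at 30331 to 38139 in control against 103091 to 128440, highest in replicate 1. In that sum Arr2 was the largest part and rose from a mean of 3458 to 54505, while eys, inaD and prom fell. Of 15 genes on the optic lobe neuron list none was listed in RNAi. Hdc alone was listed in overexpression, at 45.1 to 71.2 against 397.2 to 606.7, also highest in replicate 1. Hdc encodes the enzyme of histamine synthesis, which photoreceptors also make, so its values do not mark optic lobe neurons. No listed marker was at 0 in control, and the part of these cells in the Obp values was not tested.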

How the data were processed

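The 9 samples were mRNA libraries made from 250 ng of total RNA each with a strand-keeping kit, per the labels' protocols. The submitters' processing notes name build dm6 and, as tools, DESeq2, bedtools 2.26.0, Subread 1.6.3, Picard 2.18.20 and STAR 2.6.1d, without their roles or settings. The deposited values are normalized read counts, a signal in which the authors divided each library by its own factor. The authors also deposited a log2 fold change (control over altered, turned around here) and an adjusted p-value per gene. Column titles and sample titles were matched by name and number.

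Values were whole multiples of 1 step per library, and 100% of nonzero values came out whole within 0.02 reads. Means, SDs and folds used normalized counts without a pseudocount. Limma 3.58.1 in R 4.3.3 was fitted to log2(normalized count + 1) over all listed genes of a comparison, with Benjamini-Hochberg adjustment. EdgeR 4.0.16 with its quasi-likelihood test on the recovered reads, an alternative, called 373 of 373 and 710 of 710 listed genes. Tested on simulated data for the 373 genes of RNAi, limma found 76% of changes of 2-fold and 97% of those of 4-fold and called 4 of 173 genes that had no change. For the 710 genes of overexpression it found 68% and 97% and called 3 of 510. The simulation gave all genes the same dispersion, balanced rises and falls, and left the remaining genes unchanged. The listed genes were all selected as changed, so these rates do not carry over to them.

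Genes were placed with the Ensembl annotation BDGP6.54, release 115, whose coordinates are those of dm6, and levels per kb used the length of all annotated exons. The members and lists were chosen with earlier results of these data known. Named genes were all Obp genes, the 3 closest patterns to each with a mean of 20 or more normalized counts, listed genes within 20 kb, and from the chemosensory list the 3 highest means and 3 largest folds. Npc2 was read as the family with a letter, and symbols were matched in their listed or current form. A fit of overexpression against RNAi was planned but could not be made, because no Obp gene was listed in both comparisons. The series text calls the replicates biological without saying which animals they came from, so p-values measure the spread between these samples, which may be technical.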

Additional observations from a re-analysis of the deposited data

How the results depend on the processing

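Of 76 alternative fits of single Obp genes, 73 kept the direction and the side of the threshold and none turned around. The 3 that lost the call all came from rescaling overexpression libraries by TMM over the listed genes, where the number of Obp genes called higher fell from 3 to 0. Log2 differences were then 1.40 for Obp47a, 0.30 for Obp99c and 0.02 for Obp83ef. This scaling centres on genes the authors had selected as changed and moved the median of all listed genes by -1.52 in overexpression and -0.11 in RNAi, by construction. Against the median log2 difference of listed overexpression genes, 1.68, the unscaled differences were 2.71, 1.84 and 1.54. Leaving out each library in turn left 3 Obp genes called higher in each comparison. The full fit called 100% of the listed genes in each comparison, so these kept calls restate the selection. The number without overlap stayed at 6 by construction, since removing a library cannot create an overlap. A minimum mean of 20 normalized counts removed Obp56g and Obp47a and left 2 called genes in each comparison. The log2 difference of Obp56g ranged from 1.52 with a pseudocount of 4 to 6.04 with edgeR, so its size is set by these choices. Of the 18 genes named as closest in pattern, 16 were also closest with a pseudocount of 4, and 12 by Spearman correlation, ties included.

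With the replicate number as a block, 3 Obp genes were called higher in each comparison, as without it, and with the block in edgeR, an alternative chosen after seeing the data, again 3. Same-numbered libraries correlated at 0.05 to 0.33 in their deviations for RNAi and at -0.00078 to 0.42 for overexpression, and 2 of 6 and 3 of 6 libraries correlated best with their own number, so the numbers were not taken as pairs.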
